A study of Mus musculus with 44 samples.

Results

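Glycolysis, the cytosolic pathway that splits glucose into pyruvate, was followed through 10 of its enzyme genes in RNA from mouse brain, microglia and microglial processes. The genes were Hk1, Hk2, Gpi1, Pfkp, Aldoa, Gapdh, Pgk1, Pgam1, Eno1 and Pkm. They were chosen by symbol and matched to Ensembl identifiers with GENCODE release M21 (GRCm38). The 10 symbols stood for 11 of the 50714 identifiers that all count files share, because Aldoa has 2. Every member had an identifier in every file, and all 11 passed the filter on low counts in the comparisons between fractions of tamoxifen mice. Counts were made per gene, so the splice forms of a gene, such as those of Pkm, were not told apart.

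The series holds 44 RNA sequencing libraries of dorsal cortex and hippocampus, harvested at postnatal days 28 to 29, and its title concerns protein synthesis in the peripheral processes of microglia. All mice carried CX3CR1-CreERT2 (+/-), a Cre recombinase under the promoter of a fractalkine receptor that microglia and other macrophages use, which acts after tamoxifen. All also carried RPL10a-GFP flox (+/-), a ribosomal protein fused to GFP that is made once Cre has acted. The series' design line gives that allele as fl/fl, unlike the sample labels. Tamoxifen mice received 100 mg/kg at postnatal days 15, 17 and 19 in a mix of sunflower oil and ethanol. The sample labels say that control mice received vehicle, and the design line calls them untreated. Input was RNA of the whole homogenate, and MG_TRAP was the RNA pulled down with GFP-tagged ribosomes from it (translating ribosome affinity purification). SN_input came from synaptosomes, a preparation of nerve endings that can carry glial processes along, and PeMP_TRAP was the RNA pulled down from them. Replicate letters A to C were control and D to K tamoxifen, with 1 library of each fraction per letter. The 24 libraries of A to F are called the first set here, and the 20 of G to K the second set, in which the last fraction is named SN_TRAP and was treated as PeMP_TRAP. Nothing says that a letter is 1 animal or that letters are separate animals, so p-values measure the spread between these libraries.

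Hexokinases trap glucose in the cell as a phosphate ester, phosphofructokinase commits it to breakdown, and aldolase splits the sugar. Gapdh, phosphoglycerate kinase, phosphoglycerate mutase, enolase and pyruvate kinase then carry the fragments to pyruvate, and the kinases of these lower steps make ATP. Most steps have several isozymes that cell types use unequally: Hk1 is the main hexokinase of neurons, whereas Hk2 is induced in activated and growing cells, and Hk3 is found mainly in myeloid cells.

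Assigned reads ranged from 746616 to 35584637 per library, so that a count of 3 stood for between 0.0843 and 4.02 CPM (counts scaled to one common library size). In tamoxifen mice the summed level of 12 microglia marker genes was 184 to 346 CPM (Input), 14926 to 55578 CPM (MG_TRAP), 2324 to 9049 CPM (SN_input) and 22039 to 217312 CPM (PeMP_TRAP). None of the 12 was at 0 in any of these libraries. That of 12 neuron markers was 7850 to 9416 CPM (Input), 1193 to 4924 CPM (MG_TRAP), 5691 to 9513 CPM (SN_input) and 909 to 3900 CPM (PeMP_TRAP). Second-set PeMP_TRAP libraries stood apart, with 5425 to 7436 genes detected against 11736 to 13141 in the first set, and 2 to 6 of the 12 neuron markers were at 0 in them. SN_input D also stood apart, with 10055 genes detected.

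Hk2 set itself off from the other enzymes in tamoxifen mice: it was low in whole tissue and higher in both immunoprecipitates than in their inputs. No other member was higher there than its input in all letters with groups that did not overlap. In tamoxifen mice, 3 of the 11 identifiers differed between MG_TRAP and Input (edgeR quasi-likelihood test, adjusted p under 0.05): Hk2 was higher, and both Aldoa identifiers were lower. The minor Aldoa identifier passed the filter on low counts through input libraries alone, so the count of 3 rests in part on that choice. With the filter set by fraction instead, chosen after results had been seen, it was not tested, and 2 members were called here and 2 between PeMP_TRAP and SN_input. Of all 15710 genes tested, 6.82% were called in that comparison, 4.67% higher and 2.15% lower. Between PeMP_TRAP and SN_input, 3 of 11 differed, with Hk2 and Pkm higher and the minor Aldoa identifier lower, beside 32.3% of all genes (6.15% higher and 26.1% lower). Between PeMP_TRAP and MG_TRAP only Pkm was called, higher in PeMP_TRAP, beside 25.2% of all genes (3.17% higher and 22% lower). Between SN_input and Input only Hk2 was called, higher in SN_input, beside 2.55% of all genes (2.08% higher and 0.465% lower).

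The median log2 difference of the members was -0.91 in MG_TRAP against Input, where that of all genes was -0.14. It was -0.17 in PeMP_TRAP against SN_input (all genes -0.75), 0.28 in PeMP_TRAP against MG_TRAP (all genes -0.57) and -0.50 in SN_input against Input (all genes -0.02). Other scalings of the libraries moved these comparisons as a whole. In the same order, the all-gene median moved by -0.52, -0.34, -0.53 and -0.70 with RLE scaling, and by -0.32, 0.01, -0.73 and -1.05 with total counts. The middle member in PeMP_TRAP against MG_TRAP was Aldoa, whose 0.28 became -0.29 and -0.51 with these scalings. Microglia and neuron markers moved with the fractions: all 12 microglia markers were called higher in MG_TRAP against Input, in PeMP_TRAP against SN_input and in SN_input against Input, and neuron markers were called lower for 3 of 12, 9 of 12 and 0 of 12 in the same order. The 8 oligodendrocyte markers were called lower for 2 in the first and for all 8 in the second of these comparisons and higher for 3 in the third, with summed levels of 3315 to 5362 CPM (Input), 525 to 10458 CPM (MG_TRAP), 8561 to 67272 CPM (SN_input) and 854 to 8679 CPM (PeMP_TRAP). Of 6 border macrophage markers, 2 were called higher in the first, 2 lower in the second and 1 higher in the third. The part of these cell types in the enzyme differences was not tested. In such mixed samples, fewer cells of a type and less RNA per cell cannot be told apart.

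**Figure D1:**
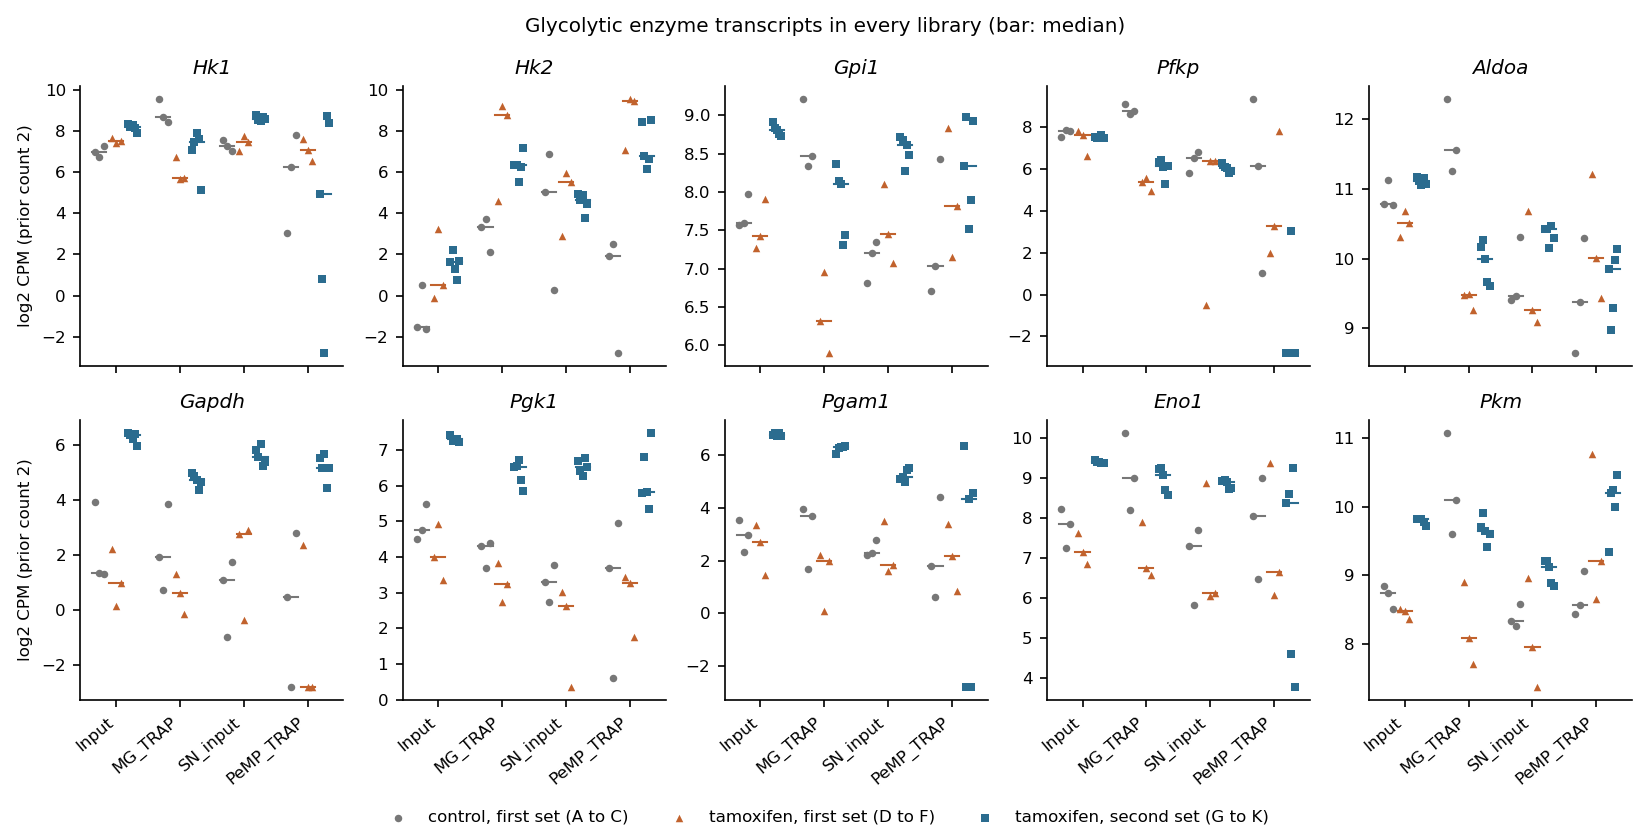
Levels of the 10 enzyme transcripts in every library (vertical axis, log2 CPM with a prior count of 2) by fraction (horizontal axis), with control and tamoxifen libraries and the first and second sets marked; the bar is the median. Hk2 is the only member whose tamoxifen MG_TRAP libraries (23.8 to 589 CPM) all lie above every tamoxifen Input library (0.784 to 9.13 CPM), and the first-set points of Gapdh, Pgk1 and Pgam1 lie below those of the second set in Input.

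**Figure D2:**
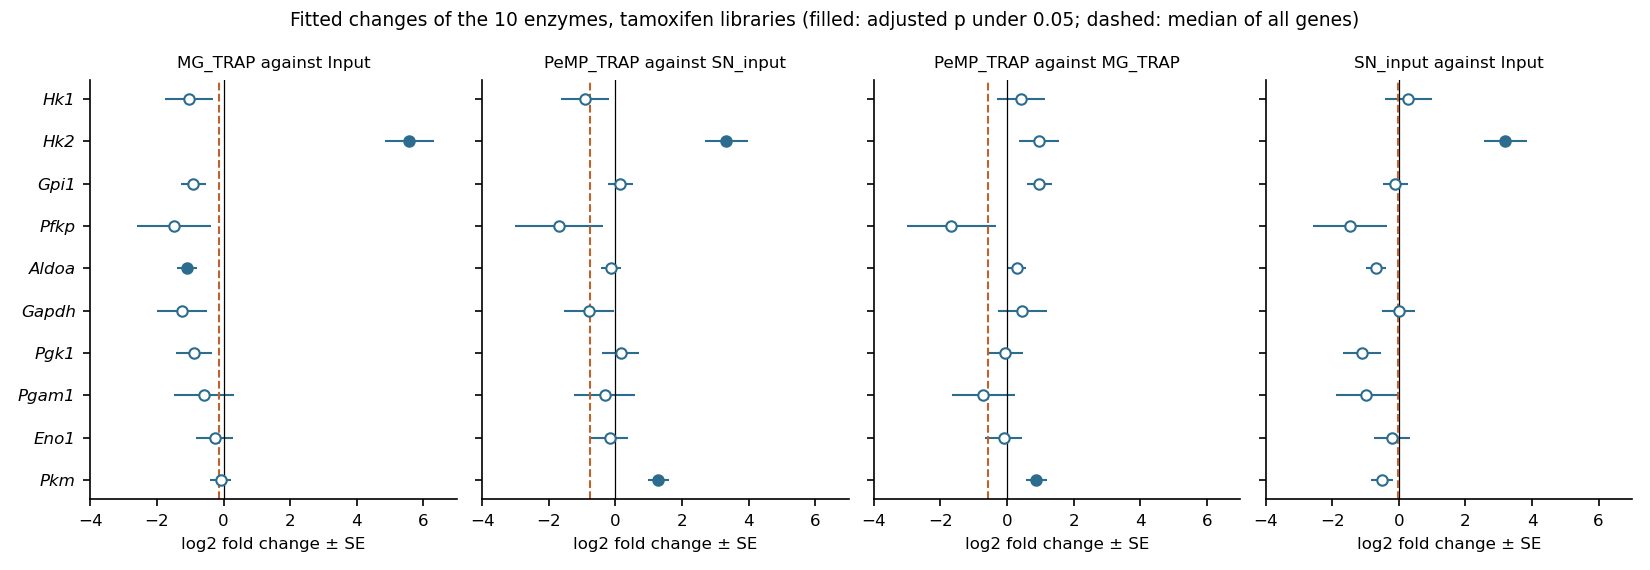
Fitted log2 fold changes with standard errors (horizontal axis) for the 10 enzymes (vertical axis) in the comparisons between fractions of tamoxifen mice, n = 8 letters each; filled points have an adjusted p under 0.05 and dashed lines mark the median of all genes. Hk2 is at 5.58 in MG_TRAP against Input and at 3.33 in PeMP_TRAP against SN_input, and Pkm is at 1.29 in the latter.

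Hexokinase 2 (Hk2, ENSMUSG00000000628) lies on the minus strand of chromosome 6 at chr6:82725025-82774454 of GRCm38. Hk3 (chr13:55005985-55021385, minus strand), which is no member but was also called higher in both immunoprecipitates, is shown with it. The 250 bases before the annotated start of each are printed because edgeR called both genes higher in both immunoprecipitates, although Hk3 was at 0 in 3 of the 5 second-set PeMP_TRAP libraries; they come from RefSeq (GRCm38.p6), Hk2 from chr6:82774455-82774704 and Hk3 from chr13:55021386-55021635, both minus strand and 5′ to 3′. Capitals mark ACGTG, the core bound by hypoxia-inducible factors, and GAGGAAG, a core of the myeloid factor PU.1, each on either strand.
Hk2: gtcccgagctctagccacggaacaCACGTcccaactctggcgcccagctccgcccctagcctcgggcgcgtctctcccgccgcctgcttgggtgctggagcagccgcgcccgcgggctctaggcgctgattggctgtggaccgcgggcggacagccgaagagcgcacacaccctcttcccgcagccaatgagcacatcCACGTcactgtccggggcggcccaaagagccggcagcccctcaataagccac
Hk3: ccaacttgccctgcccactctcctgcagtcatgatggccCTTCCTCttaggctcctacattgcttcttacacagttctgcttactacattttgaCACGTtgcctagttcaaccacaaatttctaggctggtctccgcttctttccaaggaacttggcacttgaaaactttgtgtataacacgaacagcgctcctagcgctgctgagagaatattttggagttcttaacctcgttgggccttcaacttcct
The Hk2 window held 2 matches to ACGTG, read as CACGT on the printed strand, and 0 to GAGGAAG. The Hk3 window held 1 match to each, the second read as CTTCCTC. The hypoxia core ACGTG occurred in 16.57% and GAGGAAG in 10.61% of 32851 windows of the same length before annotated starts, and in 6 and 3 of the 16 windows of the members. These matches describe the letters only.

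Whole tissue held little Hk2. In Input of tamoxifen mice it lay between 0.784 and 9.13 CPM with a median of 2.64, and in MG_TRAP between 23.8 and 589 CPM with a median of 81.2. The groups did not overlap, and MG_TRAP exceeded Input in 8 of 8 letters. The fitted log2 difference was 5.58 ± 0.73 (SE, n = 8 letters, adjusted p = 3.99e-07, edgeR). The highest MG_TRAP values were those of E (589 CPM) and F (432 CPM), and the lowest that of D (23.8 CPM), all of the first set. The second set lay between them, at 46.4 to 144 CPM.

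The synaptosome fraction held more Hk2 than the homogenate before any pull-down. SN_input ranged from 7.40 to 61.2 CPM with a median of 27.3, and exceeded Input in 8 of 8 letters, although SN_input D at 7.40 CPM was below Input E at 9.13 CPM. The difference was 3.20 ± 0.65 on the log2 scale (SE, n = 8 letters, edgeR adjusted p = 0.00183). With total counts as the scale it was 2.17 and in the first set alone 3.39, neither of them called (edgeR adjusted p = 0.0602 and 0.541). Summed microglia markers were also higher in SN_input than in Input, as given above.

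Hk2 was higher again in PeMP_TRAP than in its own input. The 8 PeMP_TRAP libraries ranged from 70.65 to 760 CPM with a median of 243, above every SN_input library. The difference was 3.33 ± 0.65 (log2, SE, n = 8 letters, edgeR adjusted p = 0.000274), in 8 of 8 letters. In the first set alone it was 3.85 and was not called (edgeR adjusted p = 0.0676). Against MG_TRAP, PeMP_TRAP was higher in 8 of 8 letters by 0.95 ± 0.60 (SE), which did not pass the test (edgeR adjusted p = 0.277). The enrichment of Hk2 over SN_input minus that over Input was -2.25 ± 0.85 (SE, n = 8 letters, edgeR adjusted p = 0.0821), a difference that passed only with the second set alone (-2.02) or without letter D (-2.20). In the same comparison all 12 microglia markers were called lower, with a median of -3.26 (all genes -0.79), and their part in the Hk2 value was not tested.

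Hexokinase 1 (Hk1, ENSMUSG00000037012, chr10:62268855-62379908, minus strand), which docks on mitochondria, had lower values in MG_TRAP than in Input and was called only with these 2 fractions alone in the fit. Input held 173 to 322 CPM (median 261) and MG_TRAP 35.3 to 240 CPM (median 121). MG_TRAP was lower in 8 of 8 letters, the groups overlapped, and the log2 difference was -1.04 ± 0.72 (SE, edgeR adjusted p = 0.556). With only the 2 fractions it was -0.99 (edgeR adjusted p = 0.0173). SN_input held 130 to 436 CPM and PeMP_TRAP 0 to 422 CPM. PeMP_TRAP values were uneven within the second set: H held 1.59 CPM and I was at 0, while J held 422 and K 334 CPM.

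The ratio of Hk2 to Hk1 per transcript length set the pair side by side. Its log2 value averaged -7.05 ± 1.10 in Input, -0.41 ± 2.38 in MG_TRAP, -4.03 ± 1.08 in SN_input and 2.16 ± 3.59 in PeMP_TRAP (SD, n = 8 each). Hk1 thus exceeded Hk2 in whole tissue in every letter, whereas the immunoprecipitates held libraries of either order. The ratio was higher in MG_TRAP than in Input by 6.64, in PeMP_TRAP than in SN_input by 6.20 and in SN_input than in Input by 3.02, each in 8 of 8 letters. All 3 had an exact permutation p of 0.000397, two-sided and within sets, the smallest that the design can give, and an adjusted p of 0.00119 over 24 ratio tests. PeMP_TRAP against SN_input gave 4.26 in the first set alone and 7.36 in the second. The value of PeMP_TRAP minus MG_TRAP was 2.57 and did not pass (exact permutation, adjusted p = 0.165), with PeMP_TRAP higher in 4 of 8 letters.

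Glucose-6-phosphate isomerase (Gpi1, ENSMUSG00000036427, chr7:34201330-34230336, minus strand) turns glucose 6-phosphate into the fructose form. Input held 154 to 482 CPM (median 428), MG_TRAP 59.4 to 329 CPM (median 166), SN_input 134 to 419 CPM (median 333) and PeMP_TRAP 142 to 504 CPM (median 281). MG_TRAP was below Input in 8 of 8 letters, although the groups overlapped. The log2 difference was -0.91 ± 0.37 (SE, edgeR adjusted p = 0.163). It was called with RLE scaling (-1.43), with total counts (-1.21), with DESeq2 (-1.42) and with only these 2 fractions in the fit (-0.85). PeMP_TRAP exceeded MG_TRAP by 0.97 ± 0.37 in 6 of 8 letters (SE, edgeR adjusted p = 0.0524), which passed without letter I (1.14).

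Platelet phosphofructokinase (Pfkp, ENSMUSG00000021196, chr13:6579768-6648777, minus strand), the isozyme that is common in brain, was nearly missing from second-set PeMP_TRAP. There, where only 5425 to 7436 genes were detected per library, it was at 0 in 4 of 5 libraries and at 8.19 CPM in I. First-set PeMP_TRAP held 3.82, 9.51 and 225 CPM in D, E and F. SN_input held 0.569 CPM, a count of 3, in D and at least 55.6 CPM in the other 7 libraries. All were below every Input library (-1.47 ± 1.10, log2, SE, edgeR adjusted p = 0.769). The sister isozymes also had lower second-set than first-set medians in PeMP_TRAP, although the sets overlapped. These were 0.735 against 59.3 CPM for Pfkm and 49.0 against 230 CPM for Pfkl.

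Whether Pfkp was called between PeMP_TRAP and SN_input depended on F, the PeMP_TRAP library with the highest level, and it was not called with F included. The difference was -1.70 ± 1.31 over all letters (log2, SE, edgeR adjusted p = 0.345), -4.43 without letter F (adjusted p = 0.00585) and -5.39 in the second set alone (adjusted p = 0.00829). Against MG_TRAP, which held 30.9 to 85.7 CPM, it was -1.67 ± 1.35 over all letters and -4.50 without F (edgeR adjusted p = 0.419 and 0.00616). MG_TRAP was below Input (99.5 to 227 CPM) in 8 of 8 letters with no overlap, by -1.49 ± 1.10 (SE, edgeR adjusted p = 0.593), and was called only with these 2 fractions in the fit (-1.56). Pfkp and Pitrm1, on the opposite strand, share 748 exon bases, and the strand setting of the counts is not given in the sources used here, so reads of the pair there cannot be told apart.

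Aldolase A (Aldoa) was the most abundant member per length in every fraction, and it was lower in MG_TRAP. The main identifier, ENSMUSG00000030695, lies at chr7:126795234-126800751 on the minus strand. Input held 1269 to 2308 CPM (median 2133) and MG_TRAP 612 to 1232 CPM (median 798). The groups did not overlap, with MG_TRAP lower in 8 of 8 letters, by -1.09 ± 0.29 (log2, SE, n = 8 letters, edgeR adjusted p = 0.0137). The call was lost without letter J (-1.04, adjusted p = 0.062) or K (-1.04, adjusted p = 0.067), and in the first set alone.

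In the synaptosome fractions Aldoa did not pass. SN_input held 547 to 1643 CPM (median 1314) and PeMP_TRAP 502 to 2371 CPM (median 965), with a log2 difference of -0.13 ± 0.29 (SE, edgeR adjusted p = 0.784). In the second set alone PeMP_TRAP was lower by -0.78 and was called. SN_input against Input was -0.68 ± 0.29 (edgeR adjusted p = 0.312), and was called with RLE scaling (-1.40), with total counts (-1.63), with DESeq2 and without letter D (-0.88).

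The other Aldoa identifier, ENSMUSG00000114515, spans chr7:126800790-126809108 just upstream on the same strand and held few reads. Over the 8 Input libraries of tamoxifen mice it had 127 counts, at most 38 in a library, and 6 libraries were above 0. All 8 MG_TRAP and all 8 PeMP_TRAP libraries were at 0. Against a floor of 3 counts over the group, it was at least 42.2-fold lower in MG_TRAP than in Input, and at least 17.6-fold lower in PeMP_TRAP than in SN_input, where 25 counts were found in 3 libraries. Letter G held 16 of these, and without it 9 counts gave at least 5.85-fold. Since the identifier was tested because of its input counts, its calls are given as a description. They were made by edgeR (adjusted p = 0.00384 and 0.00615, and 0.00216 and 0.00685 with no filter on low counts) and not by DESeq2 (adjusted p = 0.0563 and 0.117). Without letter G, I, J or K, in the first set alone, and with the filter by fraction, the identifier did not pass the filter on low counts and was not tested. With this gene at its bound, the medians of the members stayed at -0.91 and -0.17.

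Gapdh (ENSMUSG00000057666, chr6:125161715-125166467, minus strand), which makes the first high-energy intermediate, had its lower levels in the first set. Input held 0.971 to 4.53 CPM in the first set and 62.2 to 86.1 CPM in the second. MG_TRAP held 0.771 to 2.35 CPM and 20.2 to 31.2 CPM in the same order. PeMP_TRAP was at 0 in E and F and held 4.94 CPM in D, against 21.6 to 50.3 CPM in the second set. The sets did not overlap in any of the 4 fractions. The MG_TRAP value against Input was -1.24 ± 0.74 (log2, SE, edgeR adjusted p = 0.465), in 7 of 8 letters, and was called with the second set alone (-1.51), with DESeq2 (-1.77) and with only these 2 fractions in the fit (-1.17).

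Phosphoglycerate kinase (Pgk1, ENSMUSG00000062070, chrX:106187100-106203699, plus strand), the first step to make ATP, held 10.1 to 30.5 CPM in first-set and 151 to 171 CPM in second-set Input. MG_TRAP was lower in 8 of 8 letters, by -0.89 ± 0.55 (log2, SE, edgeR adjusted p = 0.489), and SN_input was lower than Input in 8 of 8 letters, by -1.11 ± 0.56 (adjusted p = 0.461). PeMP_TRAP against SN_input was 0.16 ± 0.55, with RLE scaling -0.11. With DESeq2, Pgk1 was called lower in MG_TRAP against Input (-1.38) and in SN_input against Input (-1.82).

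Phosphoglycerate mutase (Pgam1, ENSMUSG00000011752, chr19:41911923-41918660, plus strand) was called in no comparison of tamoxifen fractions under any scaling tried. Input held 2.59 to 10.0 CPM in the first set and 104 to 114 CPM in the second. Second-set MG_TRAP was even, at 66.0 to 79.9 CPM, whereas second-set PeMP_TRAP spread from 0 in H and J to 80.1 CPM in G.

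Enolase 1 (Eno1, ENSMUSG00000063524, chr4:150236721-150248879, plus strand), the enolase of glia and many other cells, also passed no test between fractions. Input held 115 to 197.5 CPM in the first set and 667 to 710 CPM in the second, and MG_TRAP 96.4 to 241 and 382 to 612 CPM. PeMP_TRAP ranged from 13.5 CPM in K and 24.4 CPM in I to 667 CPM in D. Log2 differences were -0.27 ± 0.55 in MG_TRAP against Input and -0.17 ± 0.55 in PeMP_TRAP against SN_input (SE, edgeR adjusted p = 0.899 and 0.854).

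Pyruvate kinase (Pkm, ENSMUSG00000032294, chr9:59656368-59679375, plus strand) makes pyruvate and ATP. Apart from Hk2, it was the only member called higher in PeMP_TRAP than in SN_input of tamoxifen mice. SN_input held 165 to 595 CPM (median 484) and PeMP_TRAP 402.5 to 1746 CPM (median 1101). PeMP_TRAP was higher in 8 of 8 letters, the first-set groups overlapped, and in the second set every PeMP_TRAP library (649 to 1414 CPM) exceeded every SN_input library (458 to 595 CPM). The log2 difference was 1.29 ± 0.32 (SE, n = 8 letters, edgeR adjusted p = 0.00227). It was 1.59 in the first set alone, which was not called. In control mice PeMP_TRAP also exceeded SN_input in 3 of 3 letters, by 0.43 ± 0.76 with overlap (log2, SE, edgeR adjusted p = 0.78).

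MG_TRAP and PeMP_TRAP differed less clearly in Pkm. Input held 330 to 907 CPM and MG_TRAP 209 to 958 CPM, a log2 difference of -0.09 ± 0.32 (SE, edgeR adjusted p = 0.947) with MG_TRAP higher in 2 of 8 letters. SN_input against Input was -0.50 ± 0.32 (SE, edgeR adjusted p = 0.657). There SN_input was higher in 1 of 8 letters, and lower without overlap in the second set. PeMP_TRAP exceeded MG_TRAP in 7 of 8 letters by 0.88 ± 0.32 (SE, edgeR adjusted p = 0.0394), and the groups overlapped. The value was 0.28 with RLE scaling, 0.07 with total counts and 0.24 in the second set alone, none of them called, and the call was also lost without E (0.69), F (0.77), H (0.96), I (0.91), J (0.92) or K (0.88). The enrichment of Pkm over SN_input minus that over Input was 1.38 ± 0.45 (SE, n = 8 letters, edgeR adjusted p = 0.039), the only 1 of 11 identifiers called, beside 11.3% of all genes (0.388% higher and 10.9% lower). That call was lost without E, F, G, H, I, J or K (1.29, 1.25, 1.504, 1.45, 1.39, 1.37 and 1.33 in that order), and in the first set alone (1.72). Pkm shares 767 exon bases with the predicted gene Gm49759 on the same strand.

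Per transcript length, Aldoa stood first in Input with a median of 1412 RPKM (CPM per kilobase of transcript), and Pkm (355 RPKM) and Eno1 (330 RPKM) followed. Gpi1 (148 RPKM), Pgk1 (83.5), Hk1 (67.9), Pgam1 (58.7), Gapdh (48.0) and Pfkp (43.8 RPKM) came next, and Hk2 was last at 0.478 RPKM. These medians pool 2 sets that differ unequally by gene, so the order was also taken within sets. In first-set Input Pfkp (48.1 RPKM) was the fifth, above Pgk1 (8.77), Pgam1 (3.61) and Gapdh (1.27 RPKM), whereas in the second set Pfkp (43.2 RPKM) was below all 3. Over both sets, only Aldoa over Pkm and Pfkp over Hk2 were neighbours whose libraries did not overlap. In MG_TRAP the order began in the same way, with Aldoa at 528, Pkm at 299 and Eno1 at 198 RPKM, and only Aldoa over Pkm did not overlap. Hk2 there, at 14.7 RPKM, lay between Gapdh (15.9) and Pfkp (14.1 RPKM). By set, Hk2 was the third in first-set MG_TRAP (78.4 RPKM) and the last in the second (14.7 RPKM).

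In PeMP_TRAP every pair of neighbours overlapped. Aldoa (639 RPKM) and Pkm (453 RPKM) led again, and Hk2 was the fifth at 44.1 RPKM, beside Gpi1 at 97.3 and Hk1 at 29.2 RPKM. By set, Hk2 was the third in the first (127 RPKM) and the seventh in the second (19.8 RPKM). Over both sets Pfkp was last at 0.461 RPKM. In SN_input, Aldoa (869 RPKM) was above all others without overlap, and Hk2 was last at 4.95 RPKM, although in the first set alone Hk2 (8.37 RPKM) was above Gapdh (4.68), Pgk1 (3.32) and Pgam1 (1.90 RPKM).

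Other isozymes of the same steps shifted between fractions in ratios per length, and 16 of 24 ratio tests passed (exact permutation within sets, adjusted p under 0.05). Pfkl, the liver phosphofructokinase, gained on Pfkp in MG_TRAP over Input by 1.43 on the log2 scale in 8 of 8 letters without overlap (exact permutation, adjusted p = 0.00119). It gained by 5.90 in PeMP_TRAP over SN_input and by 5.24 over MG_TRAP (exact permutation, adjusted p = 0.00212 and 0.00513), sizes that depend on the pseudocount of 2 counts since Pfkp was at 0 in several libraries: with 0.5 and 8 counts they were 6.89 and 4.93, and 6.24 and 4.21. They also differed by set. In the first and the second set alone, the gain was 2.64 and 0.71 in MG_TRAP over Input, 3.28 and 7.47 in PeMP_TRAP over SN_input, and 1.61 (in 2 of 3 letters) and 7.41 in PeMP_TRAP over MG_TRAP. None of the first-set values passed (exact permutation, adjusted p = 0.24, 0.4 and 0.835), where 3 against 3 libraries cannot. Pfkl itself held 60.2 to 173 CPM in Input and 41.0 to 678 CPM in PeMP_TRAP and passed no test between fractions. The Pfkm to Pfkp ratio passed only in SN_input over Input (1.72, exact permutation, adjusted p = 0.00544). That difference was 3.09 in the first and 0.89 in the second set alone. For the same ratio, MG_TRAP over Input was -0.38, PeMP_TRAP over SN_input -0.26 and PeMP_TRAP over MG_TRAP 1.84.

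Neuronal enolase (Eno2) was lower relative to Eno1 in both pull-downs than in their inputs. The log2 ratio averaged 0.13 ± 0.81 in Input, -1.68 ± 0.40 in MG_TRAP, -1.03 ± 1.35 in SN_input and -5.17 ± 4.07 in PeMP_TRAP (SD, n = 8 each). The difference of MG_TRAP from Input was -1.81 without overlap (exact permutation, adjusted p = 0.00119), and that of PeMP_TRAP from SN_input -4.14 (adjusted p = 0.0102). The latter ran the other way in letter K (-0.62 in PeMP_TRAP and -1.86 in SN_input) and did not pass in the second set alone (-5.06, exact permutation, adjusted p = 0.0714). In the first set alone it was -2.61, and the MG_TRAP difference was -2.77 in the first and -1.23 in the second set. Eno2 fell from 158 to 252 CPM in SN_input to at most 71.0 CPM in PeMP_TRAP, with 2 libraries at 0.

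Aldoc, the aldolase of astrocytes, gained on Aldoa in SN_input over Input by 2.64 without overlap and lost 2.89 against Aldoa in PeMP_TRAP relative to SN_input (exact permutation, adjusted p = 0.00119 and 0.00286). The latter difference was -4.46 in the first set alone and -1.95 in the second. The summed level of 8 astrocyte markers was 973 to 1488 CPM in Input, 6053 to 11262 CPM in SN_input and 544 to 4995 CPM in PeMP_TRAP, and its part was not tested. Ldha lost to Ldhb, the lactate dehydrogenase of oxidative tissue, by 1.34 in MG_TRAP and 1.68 in SN_input relative to Input (differences of -1.34 and -1.68, exact permutation, adjusted p = 0.00119 for each). In MG_TRAP against Input, Hk2 over Hk1, Pfkl over Pfkp and Eno2 over Eno1 were the ratios without overlap.

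**Figure D3:**
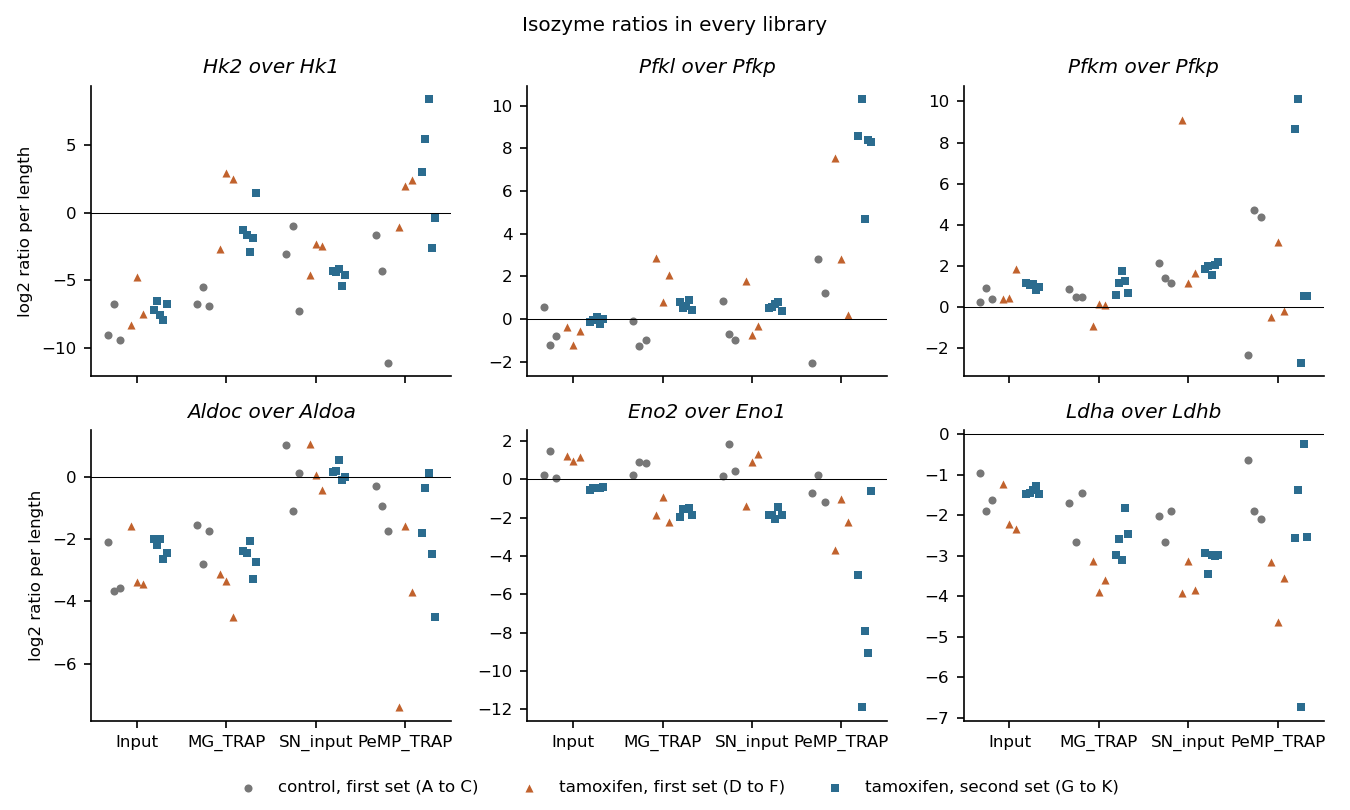
Log2 ratios of isozymes per transcript length (vertical axis) by fraction (horizontal axis), 1 point per library, with treatment and set marked; 0 means equal levels per length. The Hk2 to Hk1 ratio averages -7.05 in tamoxifen Input and -0.41 in MG_TRAP, and the Eno2 to Eno1 ratio 0.13 and -1.68.

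Levels of several members differed between the sets. In Input of tamoxifen mice the second-set median exceeded that of the first set 45.1-fold for Gapdh, 16.9-fold for Pgam1, 9.99-fold for Pgk1 and 4.71-fold for Eno1. The ratio was 2.60 for Gpi1, 2.51 for Pkm, 2.31 for Hk2, 1.59 for Hk1, 1.51 for Aldoa and 0.898 for Pfkp. In MG_TRAP it was 18.6 for Gapdh, 20.5 for Pgam1, 9.92 for Pgk1 and 5.06 for Eno1. Hk2 ran the other way in the immunoprecipitates, where its second-set median was 0.188 (MG_TRAP) and 0.156 (PeMP_TRAP) times that of the first set and the sets overlapped. Reads with more than 1 alignment made up 24.9% to 37.3% of first-set and 14.2% to 15.8% of second-set Input reads.

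Shared sequence was counted as the share of 50-base windows of a gene's main transcript found in other annotated genes. It was 82.5% for Gapdh, spread over 222 genes of which 213 were pseudogenes, 72.2% for Eno1, 68.0% for Pgk1 and 41.5% for Pgam1. It was 34.4% for Pkm, 25.3% for Gpi1, 17.1% for Pfkp, 13.9% for Aldoa and 0% for Hk1 and Hk2. Windows were shared with 122 genes for Gpi1, 9 for Eno1, 5 for Pgk1 and 4 for Pgam1. The part of shared sequence in the gap was not tested. How reads were divided among such copies was not measured, and levels of Gapdh, Eno1, Pgk1 and Pgam1 are given as uncertain. The first 50 coding bases of 2 members show the contrast (GENCODE M21 transcripts, GRCm38, 5′ to 3′, with the start codon first).
Gapdh: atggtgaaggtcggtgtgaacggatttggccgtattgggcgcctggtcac
Hk2: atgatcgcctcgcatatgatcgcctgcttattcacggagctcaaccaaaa
The Gapdh run occurs in 35 other annotated genes, 33 of them pseudogenes, and the Hk2 run in 0.

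**Figure D4:**
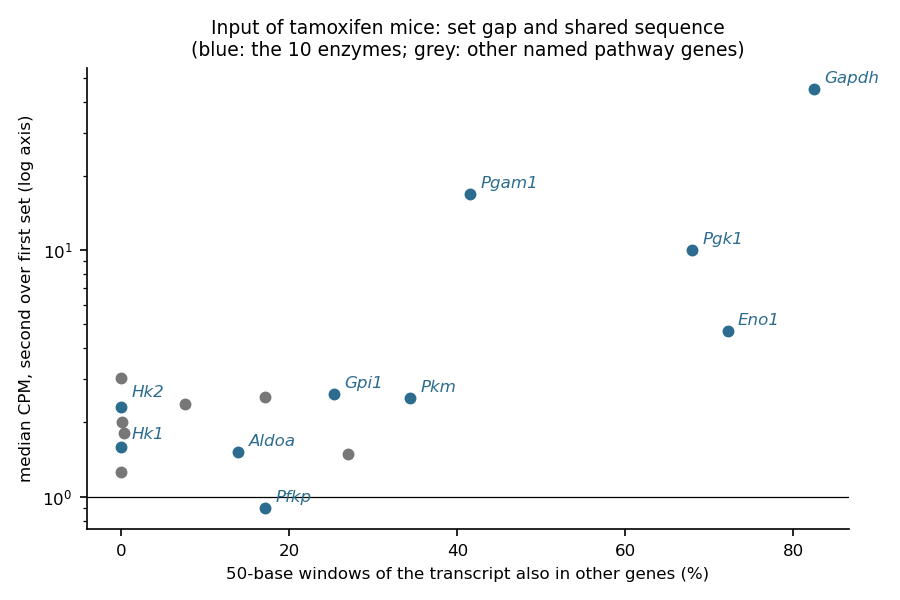
Ratio of the second-set to the first-set median CPM in Input of tamoxifen mice (vertical axis, log scale) against the percentage of 50-base transcript windows also found in other genes (horizontal axis); 1 point per gene, the 10 enzymes in blue and other named pathway genes in grey, without genes whose first-set median was under the floor of 3 counts, such as Hk3 (0% shared, 0.0357 and 1.13 CPM). Gapdh lies at 82.5% and 45.1-fold, Eno1 at 72.2% and 4.71-fold, and Hk1 at 0% and 1.59-fold.

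The enrichments over input were also compared between the sets. For MG_TRAP, 0 of 11 identifiers and 0% of all 17961 genes differed (edgeR; 0 members and 1070 genes at an unadjusted p under 0.05, and 316 genes with DESeq2). For PeMP_TRAP 0 of 11 members passed, beside 15.1% of all genes (0.189% higher and 14.9% lower), with 2 members and 4611 genes at an unadjusted p under 0.05 and 1 member and 3368 genes called by DESeq2. The 2710 genes called became 1691 without letter E and 1496 without F. The value of Pfkp was -5.83 ± 2.20 (log2, second minus first set, SE, edgeR adjusted p = 0.0691). With a replicate block Pfkp was called, as given below, and 1791 genes in place of 2710.

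Control immunoprecipitates, from mice without tamoxifen, served as the background of the pull-down. Control MG_TRAP held 9.99, 13.2 and 4.12 CPM of Hk2 in A, B and C, against 0.203, 1.28 and 0.178 CPM in control Input. This log2 difference was 4.12 ± 1.48 (SE, n = 3 letters, edgeR adjusted p = 0.589), beside 5.58 in tamoxifen mice. Control MG_TRAP also held more Hk1 (759, 413 and 352 against 127.5, 106 and 152 CPM) and more Pkm (2166, 779 and 1098 against 461, 428 and 365 CPM). None of these groups overlapped, and Aldoa, Gpi1 and Pfkp were also higher in control MG_TRAP without overlap, whereas Pgk1 was lower without overlap (-0.71 on the log2 scale). With edgeR 0 of 10 members passed, beside 0.0135% of all 14771 genes. At an unadjusted p under 0.05 there were 3 members (Hk1, Hk2 and Pkm) and 1101 genes, and DESeq2 called 0 members and 223 genes. Summed microglia markers were 3112 to 5910 CPM in control MG_TRAP and 330 to 485 CPM in control Input.

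Between tamoxifen and control MG_TRAP, no member passed the test, and the hexokinases had values of opposite sign. Hk2 held 23.8, 589 and 432 CPM in D, E and F against 4.12 to 13.2 CPM in control, a log2 difference of 5.12 ± 1.51 (SE, n = 3 each, edgeR adjusted p = 0.179). Hk1 held 108, 51.4 and 51.7 CPM against 352 to 759 CPM, a difference of -3.09 ± 0.96 (SE, edgeR adjusted p = 0.21). Aldoa (-2.57), Gpi1 (-2.48), Eno1 (-2.38), Pkm (-2.31) and Pfkp (-3.73) had lower tamoxifen values without overlap. With edgeR 0 of 10 members and 0% of all genes passed, 7 members and 2351 genes had an unadjusted p under 0.05, and DESeq2 called 5 members and 875 genes. Summed neuron markers were 6907 to 8881 CPM in control and 1193 to 2084 CPM in first-set tamoxifen MG_TRAP, and their part was not tested.

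In PeMP_TRAP, Hk2 alone of the members was called between treatments. Tamoxifen libraries D, E and F held 135, 760 and 699 CPM, and control libraries A, B and C held 3.69, 5.55 and 0 CPM. The difference was 7.23 ± 1.69 (log2, SE, n = 3 each, edgeR adjusted p = 0.00938), 1 of 10 members beside 11.1% of all genes (5.56% higher and 5.56% lower). With only these groups in the fit it was 7.21 and was not called (edgeR adjusted p = 0.0838). Summed microglia markers were 732 to 16002 CPM in control and 45758 to 217312 CPM in first-set tamoxifen PeMP_TRAP. Summed neuron markers were 3026 to 14907 CPM and 909 to 3900 CPM in the same order, and the part of these markers was not tested. The enrichment of Hk2 over SN_input in tamoxifen minus that in control mice was 7.56 ± 2.04 (SE, edgeR adjusted p = 0.0503), and 0 of 10 members passed there, beside 1.24% of all genes (183 genes, but 0 without letter A, D or F). 1 member and 2928 genes had an unadjusted p under 0.05, and DESeq2 called 1 member and 1826 genes.

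In neither input did edgeR call a gene between treatments, which at n = 3 each does not show that they are alike. In Input 0 of 10 members passed, none at an unadjusted p under 0.05, with 452 genes at that level and 48 called by DESeq2. In SN_input 0 of 10 passed, none unadjusted, with 495 genes and 64. The Input groups of Aldoa (-0.34 on the log2 scale), Hk1 (0.59) and Pkm (-0.20) still did not overlap between treatments. Control SN_input already held 32.4, 116.5 and 1.05 CPM of Hk2 in A, B and C. Its difference from control Input was 6.34 ± 1.62 (log2, SE, n = 3, edgeR adjusted p = 0.544), and control PeMP_TRAP against control SN_input was -3.88 ± 1.48 (adjusted p = 0.213). In these 2 control comparisons edgeR called 0 of 10 members, beside 0% of all genes in each, and 1 member had an unadjusted p under 0.05 in each. At that level there were 1010 genes in the first and 2577 in the second, and DESeq2 called 134 genes in the first, with Hk2, and 1275 in the second, with no member. The enrichment of MG_TRAP over Input differed between treatments for 0 of 10 members and 0% of genes (3 members and 1357 genes at an unadjusted p under 0.05, and 203 genes with DESeq2).

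Around the members, 44 other genes of glucose uptake, parallel isozymes, regulation, lactate and pyruvate use were listed, of which 39 were tested. In MG_TRAP against Input 2 were higher and 2 lower, beside 4.67% and 2.15% of all genes. Hk3 rose by 6.49 ± 1.43, from 0 to 1.46 CPM in Input to 28.5 to 98.2 CPM, and the fructose transporter Slc2a5 by 5.67 ± 0.83, from 1.53 to 10.8 CPM to 91.4 to 378 CPM (log2, SE, edgeR adjusted p = 0.00226 and 4.26e-06). Neither overlapped. Aldoc (-1.55 ± 0.49) and triose phosphate isomerase Tpi1 (-1.20 ± 0.38) were lower (adjusted p = 0.0439 and 0.0446).

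In PeMP_TRAP against SN_input 6 of the 39 were higher and 12 lower, beside 6.15% and 26.1% of all genes. Higher were Hk3 (5.37), Slc2a5 (4.42), Ldha, Eno3, Pgam2 and Pdk3. Lower were the glucose transporters Slc2a1 (-4.93), Slc2a3 (-6.55) and Slc2a6, the monocarboxylate transporters Slc16a1 and Slc16a7, Aldoc (-2.72), Eno2 (-3.35), Hkdc1, Pfkfb2, and Pdhx, Dld and Pdk4 of pyruvate use. Slc2a1 and Slc2a3 were at 0 in 5 of 8 PeMP_TRAP libraries, all of the second set, where few genes were detected. Hk3 in PeMP_TRAP was at 0 in 3 of 8 libraries and reached 1729 CPM.

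In PeMP_TRAP against MG_TRAP 3 of the 39 were higher (Bsg, Pgam2 and Tpi1, the last by 1.06) and 8 lower (among them Eno2, Hkdc1, Pdhx, Pfkfb2, Pfkfb4, Slc2a3 and Slc2a6). Of all genes, 3.17% were higher and 22% lower in that comparison. Only Aldoc passed in SN_input against Input, where 2.08% of all genes were higher and 0.465% lower. Aldoc was higher by 2.12 ± 0.50 (log2, SE, edgeR adjusted p = 0.0103). In first-set PeMP_TRAP, 4 genes of the list were called higher with tamoxifen than in control (Eno3, Hk3, Ldhb and Pdk1) and 4 lower (Eno2, Slc2a1, Slc2a3 and Slc2a6). Of all genes, 5.56% were called in each direction there.

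The genes most like a member across the 44 libraries were found by Pearson correlation of log2 CPM after the mean of each set had been subtracted, among 7596 genes. Those nearest to Hk2 were Ptpn18 (0.902), Lst1 (0.882) and Arhgap30 (0.872). Those nearest to Hk1 were Nsf (0.832), Tubb4b (0.831) and R3hdm2 (0.827), and those nearest to Gapdh were Atp6v0c (0.691), Rab3a (0.624) and Gnl1 (0.624). Among the members the closest pair was Aldoa with Gpi1 (0.746), followed by Gpi1 with Pkm (0.624), and the most opposed was Gapdh with Hk2 (-0.575), followed by Hk2 with Pgk1 (-0.56). The points share libraries, fractions and depth, so these values are descriptions.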

How the data were processed

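RNA from 44 libraries was amplified with Smart-seq v4 and made into libraries with NEBNext Ultra II, per the labels' protocols. The deposited values are raw counts of reads per Ensembl gene. The submitters' processing notes name FastQC 0.11.7, Trimmomatic 0.38, Bowtie2 2.3.5, STAR 2.7.0d, HTSeq 0.9.1 and edgeR. Genome build, annotation, read length and strand setting are not given in the sources used here. The 50714 identifiers in every file were kept, and the others held 0.0232% to 0.795% of assigned reads. HTSeq's summary lines were left out of library sizes.

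The tests used edgeR 4.0.16 in R 4.3.3 (quasi-likelihood, TMM, filterByExpr with a minimum count of 10, Benjamini-Hochberg threshold 0.05 over all genes). The tamoxifen fit held 32 libraries with fraction and set as terms, and the control comparisons the 24 first-set libraries. The filter was set from the design after first results with a filter by fraction had been seen; that filter was kept as an added alternative. DESeq2 1.42.0, other scalings, no filter, single sets, a replicate block, left-out letters and fits of the compared groups alone were alternatives. Ratios of isozymes were tested by exact permutation within sets. Code was tested on simulated data. Python 3.11.15, pandas 2.3.3 and scipy 1.17.1 were used.

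CPM use TMM library sizes, and RPKM divide these by transcript length. A count of 3 was taken as the floor, which covers counting error only. The SE of an edgeR difference was its absolute value over the square root of the F statistic. Such SE, like the SD given, hold the spread between libraries. The genes named were all members, fixed isozymes and transporters, other pathway genes that passed a test, and the 3 nearest genes of Hk1, Hk2 and Gapdh. The members and lists were chosen with earlier results of these data known. A gene of the pathway list is not reported here.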

Additional observations from a re-analysis of the deposited data

Results flagged for a closer look

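Pfkp in Input of tamoxifen mice was 6.64 on the log2 CPM scale in letter F, far below the other 7 libraries by Dixon's test. In SN_input of tamoxifen mice it was -0.49 in letter D, a count of 3, again far below the others. The test was run on 42 groups, of which chance alone marks about 1 in 20. The enrichment of Pkm over input differed between PeMP_TRAP and MG_TRAP by 1.38 on the log2 scale (edgeR adjusted p = 0.039), and leaving out any 1 of E to K ended that call, as given above.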

How the results depend on the processing

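Of the members called between tamoxifen fractions, MG_TRAP against Input gave 3, but 5 with DESeq2, 8 with the compared groups only and 1 in the first set alone, and 1 to 3 with a letter left out (1 without J or K). PeMP_TRAP against SN_input gave 3, but 0 in the first set and 5 in the second, and 2 to 4 with a letter left out. PeMP_TRAP against MG_TRAP gave 1, but 0 with DESeq2, RLE scaling, total counts, no filter, the compared groups only or the first set alone and 2 in the second set, and 0 to 1 with a letter left out. SN_input against Input gave 1, but 4 with DESeq2 or the compared groups only, 3 with RLE scaling, total counts or the second set and 0 in the first set, and 1 to 2 with a letter left out (2 without D). The enrichment difference gave 1, but 2 with RLE scaling or the second set and 0 with no filter or the first set, and 0 to 2 with a letter left out. Aldoa (ENSMUSG00000030695) in PeMP_TRAP against MG_TRAP turned from 0.28 to -0.47 in the second set alone (adjusted p = 0.0395). The causes were not tested, except that single sets hold fewer libraries.

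The PeMP_TRAP difference between sets gave 0 members, but 1 with DESeq2, no filter or total counts, and 0 to 2 with a letter left out (2 without D, 1 without I). Control SN_input against Input gave 0, but 1 with DESeq2 or no filter. Tamoxifen against control gave 0 in MG_TRAP but 5 with DESeq2, and 1 in PeMP_TRAP but 0 with the compared groups only. The PeMP_TRAP enrichment between treatments gave 0, but 1 with DESeq2, no filter or total counts. Of the isozyme ratios, 16 passed, but 0 in the first set alone, where 3 against 3 libraries cannot reach the threshold.

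Same-letter libraries did not deviate together in every pair (correlations of -0.0849 to 0.359 for MG_TRAP with Input), and the labels state no pairing, so no block was used. As a hint from the data, a library correlated best with its own letter in 9 of 11 letters for MG_TRAP with Input and for PeMP_TRAP with MG_TRAP, in 6 of 11 for SN_input with Input and in 4 of 11 for PeMP_TRAP with SN_input. With a replicate block, the set difference of PeMP_TRAP gave 1 member in place of 0 (Pfkp, -8.95), and the counts of members called in the other comparisons stayed within 1.5 times. With letters paired, the Eno2 to Eno1 ratio in PeMP_TRAP against MG_TRAP no longer passed (exact permutation, adjusted p = 0.0551), and the Aldoc to Aldoa ratio in MG_TRAP against Input passed (-0.53, adjusted p = 0.025).

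Over all genes, the counts called moved from 1071 to between 329 (first set) and 3576 (compared groups only) in MG_TRAP against Input, from 5074 to between 372 and 7093 in PeMP_TRAP against SN_input, from 3952 to between 0 and 6653 in PeMP_TRAP against MG_TRAP, from 400 to between 6 and 2779 in SN_input against Input and from 1770 to between 0 and 4600 in the enrichment difference. With a letter left out, SN_input against Input gave 195 to 509 genes and the enrichment difference 1014 to 2543. In first-set PeMP_TRAP against control the counts moved from 1643 to between 23 and 4109, and to between 365 and 1393 with a letter left out. For the PeMP_TRAP enrichment between treatments they moved from 183 to 3 with a replicate block and 1826 with DESeq2. With a letter left out they lay between 0 and 197 (0 without A, D or F, 26 without C and 45 without E). The difference in PeMP_TRAP enrichment between the sets moved from 2710 to 1791 with a replicate block and 3368 with DESeq2, and to between 1496 (without F) and 3171 with a letter left out. With the filter by fraction, MG_TRAP against Input and PeMP_TRAP against SN_input gave 2 members each in place of 3, and the other 3 tamoxifen comparisons gave 1 each, as before.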
